A study of Mus musculus with 23 samples.

Results

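The genes described here are 10 mouse CC chemokine genes, Ccl2, Ccl3, Ccl5, Ccl6, Ccl7, Ccl8, Ccl9, Ccl11, Ccl12 and Ccl24, taken by symbol from 55487 gene identifiers in the deposited tables. All 10 were found and all 10 passed the filter on low counts, among 15732 genes tested. CC chemokines are small secreted proteins with 2 neighbouring cysteines that guide leukocytes by binding G protein-coupled receptors on them. In the heart they are made by resident macrophages, fibroblasts, endothelial cells and arriving leukocytes, and they are best known for bringing monocytes, lymphocytes and eosinophils into injured or inflamed muscle.

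The study sequenced poly-A RNA of whole hearts in bulk, in 23 libraries. All mice were 10-week-old wild-type females of the inbred strain C57BL/6J. In the ISO arm they received 300 mg/kg isoproterenol, which stimulates beta-adrenergic receptors, and in the LPS arm 2.5 mg/kg lipopolysaccharide, an outer-membrane glycolipid of Gram-negative bacteria sensed by Toll-like receptor 4. Untreated hearts formed the baseline of each arm, and treated hearts were taken after 1 and 7 days. There were 3 libraries at ISO day 1 and 4 in each of the other 5 groups, from separate mice of 1 sex, 1 age and 1 dose per agent, with no vehicle-injected group in the labels. The title of the series concerns protective responses of the heart to the agents.

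Libraries held 20910394 to 30368985 estimated reads. Summed transcripts of 8 cardiomyocyte markers stood at 28392 to 56338 TPM in every library, so the labelled tissue was borne out. The LPS day 1 libraries formed pairs, replicates 1 and 2 against 3 and 4. The chi-square of their counts per degree of freedom was 10.6 to 13.3 within the pairs and 30.5 to 45.6 across them. Replicate 3 of ISO day 7 also stood apart, with macrophage markers summing to 234 TPM against 87.9 to 120 TPM in the other 3 libraries of that group. Its fibroblast markers summed to 471 TPM against 229 to 243 TPM, and its red cell markers to 413 TPM against 1677 to 2649 TPM. Changes of the 10 genes that these libraries moved are given with and without them, and the other gene lists were fitted on all libraries alone.

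Levels are given as TPM, a transcript abundance scaled by transcript length and library depth, so that genes can be compared with each other. Ccl9 and Ccl24 had deposited effective lengths that differed up to 3.53-fold and 2.84-fold between libraries. Their values per library are therefore given as CPM, read counts scaled by depth alone. The effective lengths of Ccl6 differed up to 1.49-fold, and its LPS day 1 values are given in both units. A gene was called higher or lower when edgeR's quasi-likelihood test gave an adjusted p under 0.05 (Benjamini-Hochberg over all 15732 genes). Changes are log2 changes with a standard error (SE), worked out from the change and the F statistic of its test. The 95% intervals of changes treat the SE as that of a normal distribution. They are therefore approximate and somewhat narrower than the test implies. In whole-tissue RNA, a change in the number of cells that make a transcript and a change in transcript per cell cannot be told apart.

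Of the genes, 9 lie on chromosome 11 in 2 groups (mm10). The first, on the plus strand, runs from Ccl2 to Ccl8 at chr11:82035571-82116799 and also holds Ccl7, Ccl11 and Ccl12. The second, on the minus strand, runs from Ccl5 to Ccl3 at chr11:83525778-83649355 with Ccl9 and Ccl6 between them, 1409 kb further along. Ccl24 lies on chromosome 5, at chr5:135569937-135573049 on the minus strand. All 10 are protein-coding. On the opposite strand, Gm17268 overlaps Ccl2 and had 0 reads in every library, and E230016K23Rik overlaps Ccl6 and had at most 4.

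Neighbouring genes within these groups differed in their response, so the bases before their annotated starts are shown for 2 such pairs. RefSeq promoter windows (GRCm38.p6) were matched for 5 of the 10 genes, Ccl3, Ccl6, Ccl8, Ccl9 and Ccl12. Each line gives the 250 bases before the start, 5′ to 3′ on the gene's strand, with motif matches in capitals.
Ccl6: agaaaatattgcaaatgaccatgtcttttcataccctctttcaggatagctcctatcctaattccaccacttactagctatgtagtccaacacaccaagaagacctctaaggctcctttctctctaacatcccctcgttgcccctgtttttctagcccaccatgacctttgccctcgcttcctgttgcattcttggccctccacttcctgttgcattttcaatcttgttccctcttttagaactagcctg
Ccl9: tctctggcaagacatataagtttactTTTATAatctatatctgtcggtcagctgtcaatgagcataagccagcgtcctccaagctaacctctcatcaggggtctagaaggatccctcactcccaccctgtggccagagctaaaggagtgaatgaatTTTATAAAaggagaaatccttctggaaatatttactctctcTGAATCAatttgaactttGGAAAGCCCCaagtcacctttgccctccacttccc
Ccl12: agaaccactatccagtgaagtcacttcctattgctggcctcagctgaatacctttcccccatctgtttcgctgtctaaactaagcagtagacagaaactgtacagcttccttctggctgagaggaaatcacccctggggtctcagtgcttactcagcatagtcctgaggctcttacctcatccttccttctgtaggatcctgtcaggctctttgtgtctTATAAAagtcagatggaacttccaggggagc
Ccl8: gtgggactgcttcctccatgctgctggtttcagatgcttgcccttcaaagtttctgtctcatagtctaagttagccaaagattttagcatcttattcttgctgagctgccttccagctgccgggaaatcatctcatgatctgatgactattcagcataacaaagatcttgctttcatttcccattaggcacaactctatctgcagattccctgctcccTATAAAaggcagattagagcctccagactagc
The Ccl6 stretch is chr11:83593088-83593337, that of Ccl9 is chr11:83578637-83578886, that of Ccl12 is chr11:82101595-82101844 and that of Ccl8 is chr11:82114935-82115184. The search covered 6 motifs on both strands of the 300-base windows, which run 50 bases past the start. They were the kappaB motif bound by NF-kB, the interferon-stimulated response element core (GAAA, any 2 bases, GAAA), the gamma-activated site TTCNNNGAA, AP-1 (TGANTCA), C/EBP (TTGCNNAA) and the TATA box (TATAAA).

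Ccl9 held a kappaB match whose first base lay 35 bases before the start, an AP-1 match 53 bases before it and 3 TATA matches, of which 2 overlap on opposite strands. Matches to kappaB occurred in 8.46% of all 32851 windows, to AP-1 in 7.81% and to TATA in 13.6%. Ccl12 and Ccl8 each held 1 TATA match, 31 and 32 bases before the start. The windows of Ccl6 and Ccl3 held none of the 6 motifs, and no window held the interferon core (3.44% of all windows), the gamma-activated site (8.30%) or C/EBP (10.8%). A match describes the letters, and its absence says only that they are not in this window. The Ccl6 and Ccl9 windows shared a stretch aligned over 74 columns with 58 identical bases and 7 gap columns, including the 13-base run gccctccacttcc. Over the whole window the most alike of the 10 pairs were Ccl12 and Ccl8, with 55.7% of alignment columns identical against 44.3% to 50.7% in the other 9 pairs.

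In untreated hearts the 10 genes were low, and most of their summed transcripts came from Ccl6 and Ccl9. Outside the 10, Ccl21a alone stood higher than their sum, at 21.7 ± 2.75 TPM (SD, n = 4) at ISO baseline and 19.7 ± 0.362 TPM (SD, n = 4) at LPS baseline. The 10 genes summed to 14.4 ± 1.48 TPM (SD, n = 4) at ISO baseline and 14.6 ± 1.11 TPM (SD, n = 4) at LPS baseline. Ccl6, a rodent CCR1 ligand made by macrophages, led with 39.5% and 35.0% of that sum. Ccl9, its neighbour and another rodent CCR1 ligand, followed with 16.3% and 26.6%. At ISO baseline its libraries ran from 1.16 to 4.27 TPM but from 2.72 to 3.34 CPM, so its share and place carry the differences in effective length. Ccl24, a CCR3 ligand, came next in both, at a mean of 1.83 and 2.24 TPM.

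In the order of mean TPM at ISO baseline, Ccl6 was clear of Ccl9 in every library. Each gene from Ccl9 down to Ccl12 overlapped with the next, and Ccl8, after Ccl12, was clear of Ccl3. At LPS baseline, Ccl6 and Ccl9 overlapped, Ccl24 was clear of both its neighbours in the order, and the genes from Ccl2 down each overlapped with the next. Ccl3, the CCR1 ligand also called MIP-1 alpha, was last in both, with 0 to 3 reads per library. Between the baselines, 0 of 10 members were called, against 1.21% of all genes tested (0.477% higher and 0.737% lower). An unadjusted p under 0.05 was reached by 2 members in edgeR, and DESeq2 called 0. They were Ccl5, which was 1.31 ± 0.55 (SE) lower at LPS baseline on the log2 scale, and Ccl9, which was 0.40 ± 0.19 (SE) higher there.

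**Figure D1:**
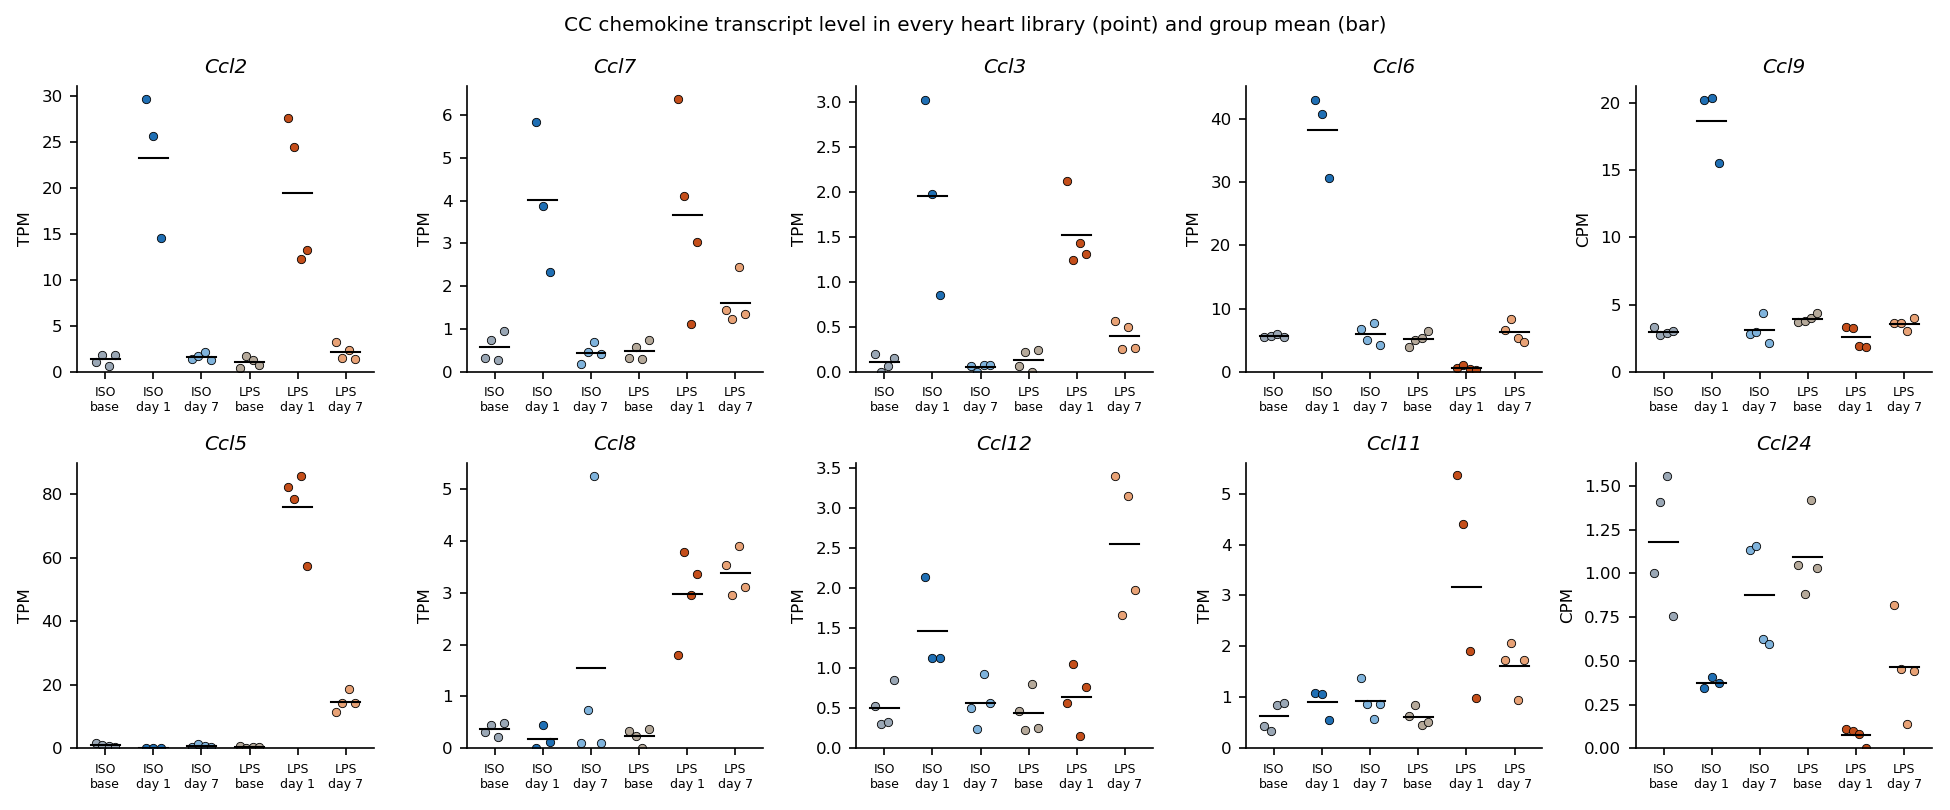
Level of each CC chemokine gene (vertical axis, TPM, or CPM for Ccl9 and Ccl24, from 0) in each library (points) of the 6 groups (horizontal axis), with the group mean as a bar. Ccl2, Ccl7 and Ccl3 stood high at day 1 in both arms, Ccl6 and Ccl9 at ISO day 1 alone, Ccl5 at LPS day 1 and less so at LPS day 7, and Ccl8 at both LPS times and in 1 ISO day 7 library.

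The first comparison asked how these genes stood 1 day after isoproterenol. Of the 10, 6 rose and 2 fell. Among all genes tested 65.7% were called, 32.9% higher and 32.8% lower, so that many calls are common at this time. The sizes were less common. At least 4-fold rises were seen in 5 members (Ccl2, Ccl3, Ccl6, Ccl7 and Ccl9) and such a fall in 1 (Ccl5), against 2.96% and 3.62% of all genes. The median change over the members was 2.04 on the log2 scale, and -0.02 over all genes tested.

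The CCR2 ligands, which draw monocytes out of marrow and blood, rose together at ISO day 1. Ccl2, the main CCR2 ligand, stood at 1.08, 1.82, 0.67 and 1.84 TPM in the baseline libraries and at 29.7, 25.7 and 14.6 TPM at day 1. Every treated library was above every untreated one, and the change was 4.09 ± 0.38 (SE), adjusted p = 2.92e-09 by edgeR. Ccl7, which also binds CCR2, stood at 0.32, 0.74, 0.27 and 0.96 TPM before and at 5.84, 3.89 and 2.33 TPM after, again without overlap.

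The change in Ccl7 was 2.80 ± 0.50 (SE), adjusted p = 4.15e-05 by edgeR. Ccl12, another mouse CCR2 ligand, moved less, from 0.53, 0.30, 0.34 and 0.86 TPM to 2.15, 1.13 and 1.13 TPM. These are 2 to 7 reads per untreated library and 9 to 16 per treated one. Ccl12 changed by 1.44 ± 0.52 (SE), adjusted p = 0.0176 by edgeR, and the call was lost without ISO day 1 replicate 1 (adjusted p = 0.119) or without ISO baseline replicate 3 (0.0501).

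The CCR1 ligands divided at ISO day 1. Ccl6 rose from 5.44, 5.63, 6.03 and 5.45 TPM to 43.1, 40.8 and 30.7 TPM, a change of 2.76 ± 0.19 (SE), adjusted p = 2.49e-11 by edgeR. Ccl9 rose almost as far in the same libraries, from 3.34, 2.72, 2.85 and 3.04 CPM to 20.2, 20.3 and 15.5 CPM, a change of 2.64 ± 0.19 (SE), adjusted p = 3.35e-11 by edgeR. The ratio of Ccl6 to Ccl9 CPM was 1.66 ± 0.146 (SD, n = 4) at baseline and 1.80 ± 0.111 (SD, n = 3) at day 1, with overlapping libraries. Whether that ratio differed was not tested.

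Ccl3 went from 3, 0, 1 and 2 reads to 36, 28 and 11 reads. Its change was 3.96 ± 0.57 (SE), adjusted p = 2.61e-06 by edgeR. Ccl5, also called RANTES, which attracts T cells and monocytes through CCR1 and CCR3, went the other way. It stood at 19, 8, 9 and 3 reads at baseline and at 1, 1 and 2 reads at ISO day 1, a fall of 2.78 on the log2 scale (SE 0.77, adjusted p = 0.0031 by edgeR). With 4 reads in the treated group, counting error alone left the ratio of baseline to day 1 between 2.70 and 28.8 (95%, exact), and limma-voom did not call it (adjusted p = 0.051).

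The remaining members did not rise after isoproterenol. Ccl24, an eosinophil attractant of the eotaxin family, fell by 1.63 on the log2 scale (SE 0.44, adjusted p = 0.00243 by edgeR), from 1.00, 1.41, 1.56 and 0.76 CPM to 0.35, 0.41 and 0.37 CPM. Ccl11, eotaxin itself, was at 0.34 to 0.89 TPM before and 0.56 to 1.09 TPM after, with a change of 0.46 and a 95% interval of -0.62 to 1.55. Ccl8, a ligand of CCR8 in the mouse, had 2 to 4 reads per library before and 0 to 4 after, and its interval of -3.28 to 1.60 leaves changes of either sign possible at this depth.

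At 1 day after lipopolysaccharide, Ccl5 led the 10 genes, and Ccl6, the leader at baseline, was among those that fell. Of 10 members, 6 were called higher and 3 lower. Among all genes tested 66.2% were called, 33.2% higher and 33% lower. At least 4-fold rises were seen in 6 members (Ccl2, Ccl3, Ccl5, Ccl7, Ccl8 and Ccl11) against 4.51% of all genes, and such falls in 2 (Ccl6 and Ccl24) against 3.52%. The median change over the members was 2.68 on the log2 scale, and 0 over all genes tested.

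Ccl5 stood at 0.69, 0.21, 0.35 and 0.45 TPM in the baseline libraries and at 82.2, 78.3, 85.7 and 57.5 TPM at LPS day 1. In reads this was 2 to 7 per library before and 599 to 819 after, with no overlap. The change was 7.48 ± 0.32 (SE), or 178-fold, adjusted p = 4.09e-15 by edgeR, and it was 7.27 and 7.66 without either pair of day 1 libraries. It took 68.9% ± 7.27 (SD, n = 4) of the members' summed TPM, up from 2.93% ± 1.57 (SD, n = 4).

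Among the CCR2 ligands, Ccl2 and Ccl7 rose at LPS day 1 and Ccl12 was not called. Ccl2 went from 0.46, 1.69, 1.30 and 0.75 TPM to 27.7, 24.5, 12.3 and 13.2 TPM, a change of 4.29 ± 0.38 (SE), adjusted p = 1.17e-09 by edgeR. The pairs of LPS day 1 libraries show in these values, and the change was 3.55 without replicates 1 and 2 and 4.79 without replicates 3 and 4. Ccl7 went from 0.33, 0.57, 0.31 and 0.76 TPM to 6.37, 4.11, 1.11 and 3.03 TPM, a change of 2.96 ± 0.49 (SE), adjusted p = 1.35e-05 by edgeR.

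The change in Ccl7 was 2.03 without replicates 1 and 2 and 3.54 without replicates 3 and 4, and it was called in both cases. Ccl12 had 4, 2, 6 and 2 reads at baseline and 5, 8, 1 and 7 at day 1, and its change of 0.64 had a 95% interval of -0.46 to 1.73.

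Ccl8 and Ccl11, neither of them called at ISO day 1, were higher at LPS day 1. Ccl8 went from 3, 2, 0 and 3 reads to 16, 29, 21 and 31 reads, a change of 3.60 ± 0.82 (SE), adjusted p = 0.000548 by edgeR. With 8 baseline reads in all, counting error alone left the ratio between 6.05 and 29.6 (95%, exact). Ccl11 went from 0.64, 0.85, 0.46 and 0.51 TPM to 5.36, 4.39, 1.92 and 0.985 TPM.

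The change in Ccl11 was 2.41 ± 0.47 (SE), adjusted p = 9.4e-05 by edgeR, with every treated library above every untreated one. Its size followed the library pairs, at 1.11 (adjusted p = 0.0348) without replicates 1 and 2 and 3.10 without replicates 3 and 4. Ccl3 rose from 1, 3, 0 and 3 reads to 30, 15, 16 and 19 reads, a change of 3.48 ± 0.55 (SE), adjusted p = 7.23e-06 by edgeR.

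Ccl6 fell from 3.89, 4.98, 5.33 and 6.38 TPM to 0.66, 1.02, 0.39 and 0.30 TPM at LPS day 1. Its effective length was 1301 to 1303 bases in LPS day 1 replicates 1, 3 and 4. It was 979 bases in replicate 2 and 890 to 1048 bases at LPS baseline, so these TPM carry a length difference. In CPM, Ccl6 went from 3.51, 4.17, 4.78 and 4.94 to 0.78, 1.05, 0.41 and 0.34. On counts the fall was 2.79 on the log2 scale (SE 0.27, adjusted p = 4.41e-09 by edgeR), or 6.93-fold, and the libraries did not overlap. The log2 change was -3.52 without replicates 1 and 2 and -2.27 without replicates 3 and 4. Ccl9 fell far less, from 3.69, 3.75, 4.03 and 4.35 CPM to 3.31, 3.24, 1.95 and 1.85 CPM.

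For Ccl9 the log2 change was -0.62 ± 0.19 (SE), adjusted p = 0.00677 by edgeR, with no overlap in CPM. In TPM the same groups overlapped, and the call was lost with effective-length offsets (adjusted p = 0.391) and without replicates 3 and 4 (0.242). The ratio of Ccl6 to Ccl9 CPM dropped from 1.10 ± 0.102 (SD, n = 4) to 0.239 ± 0.0596 (SD, n = 4), with no overlap. Ccl24 had 29, 23, 36 and 26 reads before LPS and 3, 2, 2 and 0 after, a fall of 3.87 on the log2 scale (SE 0.52, adjusted p = 8.67e-07 by edgeR), and counting error alone left the baseline to day 1 ratio between 7.48 and 40.5 (95%, exact). The change of Ccl24 was -4.69 without replicates 1 and 2 and -3.30 without replicates 3 and 4.

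**Figure D2:**
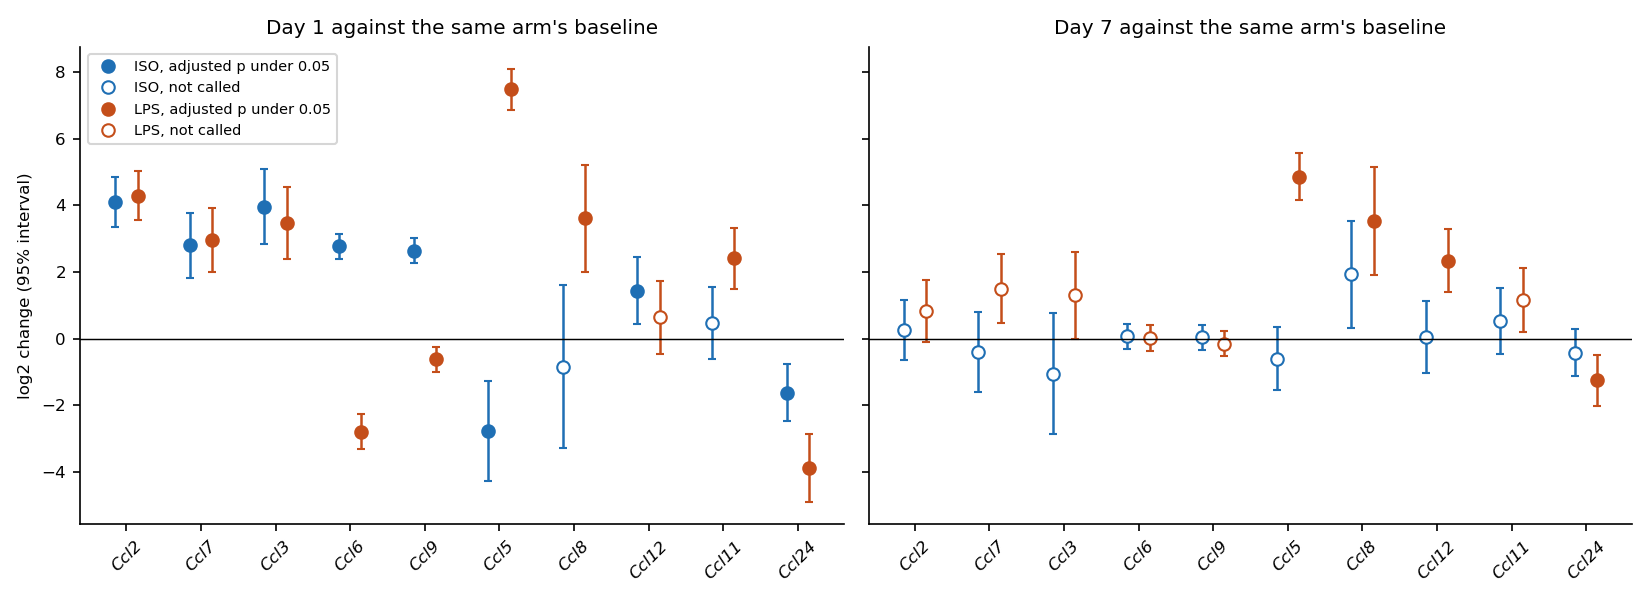
Log2 change against the same arm's baseline (vertical axis) with its 95% interval for each of the 10 genes (horizontal axis), at day 1 on the left and day 7 on the right. Filled points passed an adjusted p of 0.05. At day 1 the 2 agents' intervals lie together for Ccl2, Ccl7 and Ccl3 and on opposite sides of 0 for Ccl6, Ccl9 and Ccl5.

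The difference between the agents at day 1 was tested as the LPS change minus the ISO change. Of 10 members, 3 were called higher under LPS and 3 lower. Among all genes tested 37.6% were called, 18.2% higher and 19.5% lower. Differences of at least 4-fold were called for 2 members higher (Ccl5 and Ccl8) and 3 lower (Ccl6, Ccl9 and Ccl24), against 2.42% and 1.18% of all genes. Higher under LPS were Ccl5 by 10.25 ± 0.81 (SE), Ccl8 by 4.44 ± 1.53 (SE) and Ccl11 by 1.95 ± 0.73 (SE) on the log2 scale, with adjusted p of 1.11e-09, 0.0248 and 0.0402 by edgeR. Higher under ISO were Ccl6, with a difference of -5.56 ± 0.32 (SE, adjusted p = 5.81e-12), Ccl9, with -3.26 ± 0.27 (SE, 2.21e-09), and Ccl24, with -2.24 ± 0.72 (SE, 0.017), by the same test.

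The differences of Ccl11, Ccl8 and Ccl24 depended on single libraries or settings. That of Ccl11 was lost when LPS day 1 replicates 1 and 2 were left out (adjusted p = 0.436) and in 9 of the 15 fits that left out a single library. That of Ccl8 was lost without ISO baseline replicate 4 (0.0523) or ISO day 1 replicate 1 (0.0542), and was 5.86 without ISO day 1 replicate 2. That of Ccl24 was lost with effective-length offsets (0.0816) and without LPS day 1 replicates 3 and 4 (-1.68, adjusted p = 0.0963). It was -3.07 without replicates 1 and 2. The difference of Ccl6 was called without either pair, at -6.28 without replicates 1 and 2 and -5.03 without replicates 3 and 4. That of Ccl5 was called in every alternative, but its size ran from 6.51 to 10.67. Ccl5 had 4 reads in all at ISO day 1 and 16 at LPS baseline, so this size is uncertain.

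The other 4 members gave no call, and their approximate intervals show roughly how large a difference the data leave room for. For Ccl2 it was 0.20 with a 95% interval of -0.94 to 1.33, for Ccl7 0.16 with -1.27 to 1.59, and for Ccl3 -0.48 with -2.31 to 1.35. For Ccl12 it was -0.81 with -2.33 to 0.72. The missing calls therefore do not show that the agents acted alike on these genes.

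**Figure D3:**
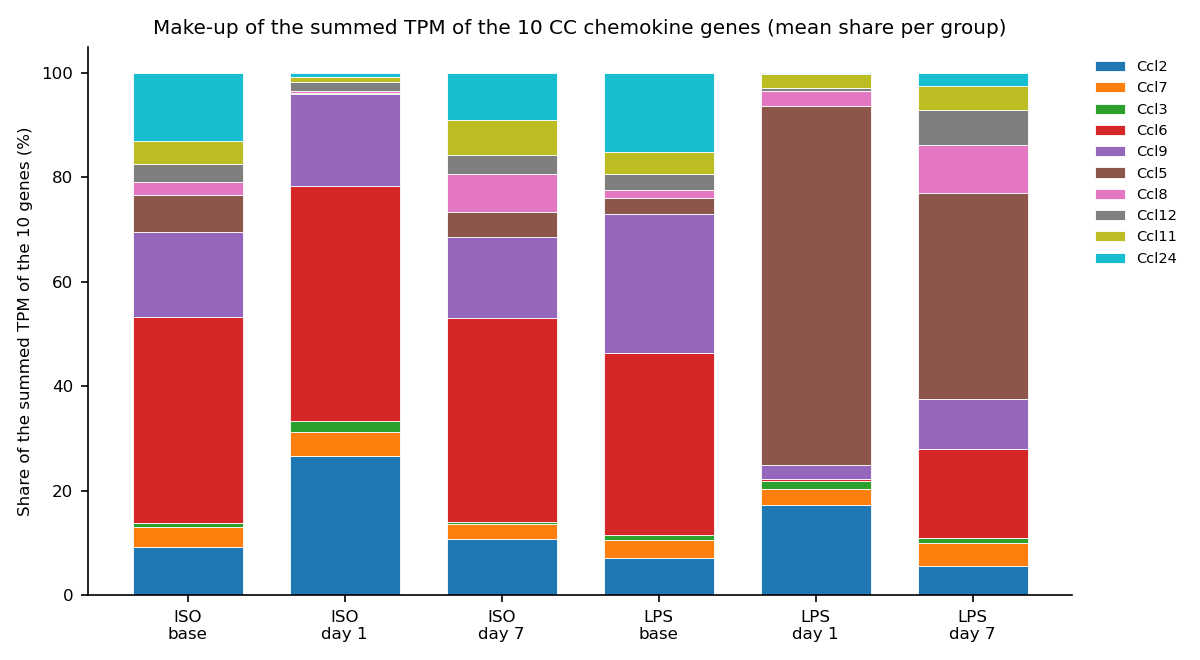
Mean share (vertical axis, percent) of each gene in the summed TPM of the 10 genes, per group (horizontal axis). Ccl6 held 39.5% at ISO baseline and 45.03% at ISO day 1, and Ccl5 held 68.9% at LPS day 1 and 39.5% at LPS day 7.

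The summed transcripts of the 10 genes were higher at day 1 than in every baseline library under both agents, with a different make-up. They came to 85.8 ± 20.5 TPM (SD, n = 3) at ISO day 1 and 111 ± 21.3 TPM (SD, n = 4) at LPS day 1. At ISO day 1 the leading genes were Ccl6 with 45.03%, Ccl2 with 26.7% and Ccl9 with 17.7%, and Ccl5 held 0.189%. At LPS day 1 they were Ccl5 with 68.9% and Ccl2 with 17.2%, and Ccl6 held 0.517%. In order of level at LPS day 1, Ccl5 was clear of Ccl2 and Ccl2 of Ccl7 in every library. Ccl7, Ccl11, Ccl8 and Ccl9 each overlapped with the next, and Ccl3, after Ccl9, was clear of Ccl12.

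At 7 days after isoproterenol the members were back among the baseline values. None of the 10 was called against ISO baseline, where 0.00636% of all genes tested were, and DESeq2 also called 0. One member, Ccl8, had an unadjusted p under 0.05 in edgeR. Ccl8 stood at 0.10, 0.74, 5.25 and 0.11 TPM, so that the whole rise was in replicate 3. That library stood apart in macrophage, fibroblast and red cell markers alike. The log2 change of Ccl8 was 1.92 ± 0.82 (SE) with that library and -0.16 without it. The other 9 members changed by -1.05 (Ccl3) to 0.52 (Ccl11), all with overlapping libraries.

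From ISO day 1 to ISO day 7, 6 members fell and 3 rose, where 31.9% of all genes tested fell and 33.2% rose, 65.1% in all. Ccl2 fell by 3.83, Ccl7 by 3.20, Ccl6 by 2.70, Ccl9 by 2.59 and Ccl12 by 1.39 on the log2 scale. The fall of Ccl12 was not called without ISO day 1 replicate 1 (adjusted p = 0.13) or ISO day 7 replicate 2 (0.0619). Ccl3 had 75 reads over the 3 day 1 libraries and 3 over the 4 day 7 libraries, a ratio of 36.2 per read sequenced with a counting interval of 11.9 to 179 (95%, exact). Ccl24 rose by 1.21, Ccl5 by 2.17 and Ccl8 by 2.76, with adjusted p of 0.0201, 0.0252 and 0.0201 by edgeR.

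The rises of Ccl24, Ccl5 and Ccl8 rested on few reads. Each was lost in 3 of the 7 fits that left out a library, among them Ccl8 without ISO day 7 replicate 3 (0.68, adjusted p = 0.502) and Ccl5 without ISO day 7 replicate 2 (1.56, adjusted p = 0.123). Without ISO day 1 replicate 1, 5 members rather than 9 were called. This comparison shares its day 1 libraries with the first one, so the falls of Ccl2, Ccl6 and the others are not a second sighting of their rise.

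At 7 days after LPS, 4 of 10 members were called against LPS baseline, 3 higher and 1 lower. Among all genes tested 9.1% were called, 5.96% higher and 3.13% lower. All 3 risers changed at least 4-fold, as did 0.877% of all genes in that direction. Ccl5 stood at 11.3, 14.1, 18.5 and 14.2 TPM, all above the 0.21 to 0.69 TPM at baseline, with a change of 4.86 ± 0.36 (SE), adjusted p = 1.03e-08 by edgeR. It was still the leading member, with 39.5% ± 8.05 (SD, n = 4) of the summed TPM.

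Ccl8 and Ccl12 were the other risers at LPS day 7. Ccl8 stood at 3.54, 2.95, 3.91 and 3.11 TPM, a change of 3.53 ± 0.83 (SE), adjusted p = 0.00962 by edgeR. Ccl12, not called at LPS day 1, stood at 3.41, 1.66, 3.15 and 1.98 TPM against 0.24 to 0.81 TPM at baseline, a change of 2.34 ± 0.48 (SE), adjusted p = 0.00374 by edgeR. None of these 3 calls was lost without any single library or in any alternative setting run for the gene. Those settings numbered 12 for Ccl5 and Ccl8 and 11 for Ccl12. Ccl12 reached the count cutoff of the filter in 5 libraries, 4 of them at LPS day 7. It was therefore tested through the group where it was high.

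Ccl24 was lower at LPS day 7, by 1.25 on the log2 scale (SE 0.39, adjusted p = 0.0441 by edgeR), at 0.82, 0.45, 0.14 and 0.44 CPM against 0.88 to 1.42 CPM at baseline. Leaving out any of 7 of the 8 libraries ended that call, with adjusted p up to 0.159. Ccl7, Ccl3 and Ccl11 were not called. Their TPM in every day 7 library lay above every baseline library, as did that of 27.3% of all genes, but in CPM Ccl3 and Ccl11 overlapped their baselines. The changes were 1.498 for Ccl7 (adjusted p = 0.0798), 1.30 for Ccl3 (0.25) and 1.16 for Ccl11 (0.152), by edgeR. Ccl7 passed in 5 alternative settings, among them scaling by library totals, and Ccl11 in 2. Ccl2 stood at 3.24, 1.53, 2.39 and 1.35 TPM, overlapping its baseline.

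From LPS day 1 to LPS day 7, 5 members fell and 4 rose, where 32.5% of all genes tested fell and 33.9% rose, 66.4% in all. These tests share the day 1 libraries with those against baseline. Ccl2 fell by 3.45, Ccl5 by 2.62, Ccl3 by 2.18, Ccl7 by 1.46 and Ccl11 by 1.24 on the log2 scale. Ccl6 rose by 2.81 to 6.64, 8.30, 5.41 and 4.72 TPM, values that overlapped its baseline. Ccl24 rose by 2.62, Ccl12 by 1.70 and Ccl9 by 0.48, and the change of Ccl8 was -0.07 with a 95% interval of -1.22 to 1.08.

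The calls of Ccl11, Ccl7 and Ccl9 depended on the library pairs of LPS day 1. Without replicates 1 and 2 the change of Ccl11 was 0.06 and that of Ccl7 -0.53 (adjusted p = 0.331), and without replicates 3 and 4 that of Ccl9 was 0.12 (adjusted p = 0.607). Ccl11 also lost its call without replicate 1 or without replicate 2 alone (adjusted p up to 0.0884). Ccl9 lost its call in 5 of the 8 fits that left out a library, with adjusted p up to 0.142. Calls were kept but values moved by over 1.5-fold for Ccl2 (-2.71), Ccl6 (3.53) and Ccl24 (3.44) without replicates 1 and 2.

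Between the agents at day 7, Ccl5 alone among the 10 members was called, where 0.458% of all genes tested were (0.362% higher and 0.0953% lower). Its LPS change exceeded its ISO change by 5.47 ± 0.66 (SE), adjusted p = 8.42e-05 by edgeR, and it was 6.07 without ISO day 7 replicate 2. Ccl12 had a difference of 2.29 ± 0.74 (SE) and Ccl7 one of 1.90 ± 0.81 (SE), both with an unadjusted p under 0.05 but adjusted p of 0.265 and 0.45. Ccl8 had a difference of 1.61 ± 1.28 (SE), which became 3.70 (adjusted p = 0.0407) without ISO day 7 replicate 3.

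The receptors of these ligands mark the cells that can respond, and they were tested from a list of 12. Of these, 6 passed the filter on low counts. At ISO day 1, 1 of the 6 was higher and 3 were lower, and at LPS day 1, 3 were higher and 3 lower, where among all genes tested about as many rose as fell (32.9% and 32.8%, then 33.2% and 33%). Ccr1, the receptor of Ccl3, Ccl5, Ccl6 and Ccl9, rose at ISO day 1 from 0.15, 0.44, 0.37 and 0.61 CPM to 4.87, 5.24 and 3.37 CPM, a change of 3.52 ± 0.34 (SE), adjusted p = 4.8e-09 by edgeR.

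Ccr1 moved much less at LPS day 1, by 0.82 ± 0.33 (SE, adjusted p = 0.0334), and the difference between the agents was -2.70 ± 0.48 (SE, adjusted p = 0.000119), by edgeR. Ccr2, the receptor of Ccl2, Ccl7 and Ccl12, did not rise at day 1 in either arm. It fell by 1.73 on the log2 scale at LPS day 1 (SE 0.48, adjusted p = 0.00307 by edgeR), to 0.04, 0.45, 0.17 and 0.21 CPM, and its change at ISO day 1 was -0.30 with a 95% interval of -1.11 to 0.50. At LPS day 7 Ccr2 was up by 2.004 ± 0.35 (SE, adjusted p = 0.00096 by edgeR), at 2.12, 3.08, 3.26 and 2.49 CPM against 0.48 to 0.87 CPM at baseline.

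Ccr3, the receptor of Ccl11 and Ccl24, had 7 reads over all 23 libraries, and Ccr8, the receptor of mouse Ccl8, had 15, so neither was tested.

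**Figure D4:**
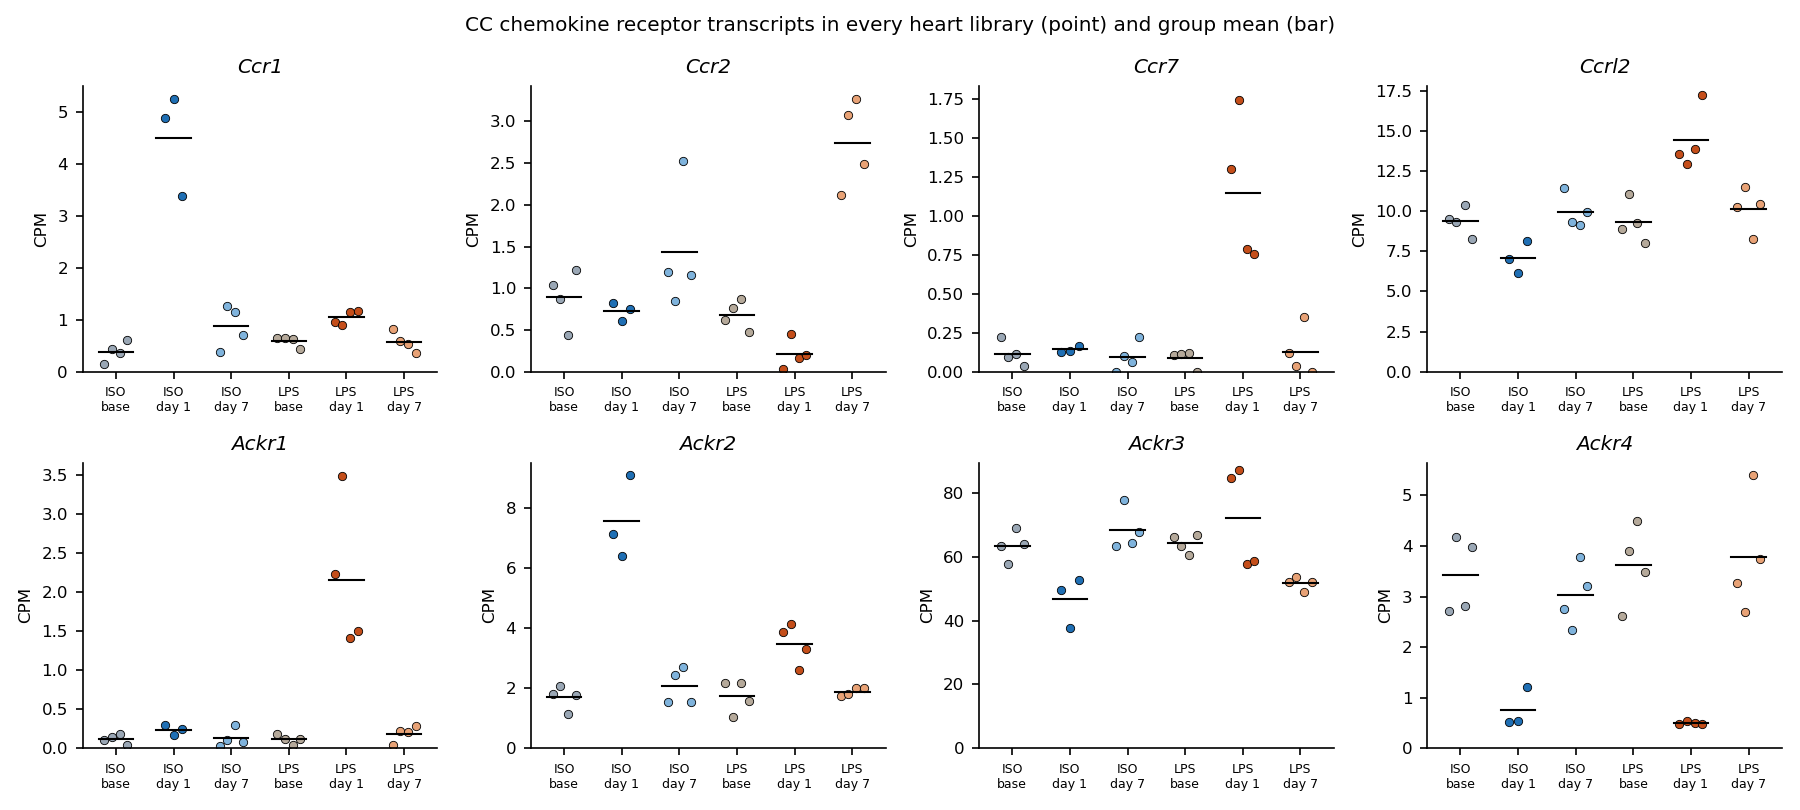
Receptor transcripts (vertical axis, CPM, from 0) in each library (points) of the 6 groups (horizontal axis), with the group mean as a bar. Ccr1 and Ackr2 were highest at ISO day 1, Ccr7 and Ackr1 at LPS day 1, and Ccr2 at LPS day 7.

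The atypical receptors, which bind chemokines without signalling for migration, were all 4 tested. Ackr2, a scavenger of inflammatory CC chemokines, rose by 2.15 ± 0.23 (SE) at ISO day 1 and by 0.99 ± 0.23 (SE) at LPS day 1, and the difference of -1.16 was called (adjusted p = 0.00731 by edgeR). Ackr1, a chemokine-binding protein of venules, rose at LPS day 1 from 0.04 to 0.18 CPM up to 1.41 to 3.49 CPM, a change of 4.17 ± 0.49 (SE), and had an ISO change of 0.97 ± 0.64 (SE) that was not called. Ackr4, the scavenger of Ccl19 and Ccl21, fell by 2.18 at ISO day 1 and by 2.85 at LPS day 1 on the log2 scale.

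Of 11 further CC chemokine genes, 6 could be tested. At ISO day 1, 1 rose and 2 fell, where 32.9% and 32.8% of all genes did. At LPS day 1, 3 rose and 1 fell, where 33.2% and 33% of all genes did. Small counts of this kind are near those shares. Ccl19, a CCR7 ligand, rose by 6.21 ± 0.33 (SE) at LPS day 1, from 0.22, 0.60, 0.35 and 0.26 TPM to 34.3, 28.8, 19.7 and 21.5 TPM, and by 1.78 ± 0.58 (SE) at ISO day 1. Its receptor Ccr7 rose by 3.65 ± 0.65 (SE) at LPS day 1 and was not called at ISO day 1, where its change was 0.27 ± 0.86 (SE).

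Ccl21a, the other CCR7 ligand, which lymphatic vessels make, fell by 3.23 at ISO day 1 and by 1.66 at LPS day 1 on the log2 scale, from a baseline of 17.7 to 23.7 TPM. Reads of Ccl19 and Ccl21a can be shared with near-identical copies in the mouse genome, so their split is uncertain. Ccl4, the neighbour and close relative of Ccl3, did not pass the filter, with 0 to 2 reads per baseline library, 2 to 7 at ISO day 1, 2 to 15 at LPS day 1 and 5 to 10 at LPS day 7.

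Among 17 transcription factors and inhibitors known to act on chemokine genes, 9 rose and 2 fell at ISO day 1, 12 rose and 2 fell at LPS day 1, and 4 rose at LPS day 7. The shares over all genes were 32.9% and 32.8%, then 33.2% and 33%, and 5.96% higher at LPS day 7. The median change was 0.58 at ISO day 1 and 1.05 at LPS day 1. Irf7, a factor known for interferon responses, changed in opposite directions under the agents. It fell by 0.58 on the log2 scale at ISO day 1 and rose by 5.49 ± 0.19 (SE) at LPS day 1. The difference between the agents was 6.07 ± 0.27 (SE), adjusted p = 5.72e-14 by edgeR.

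Rela, an NF-kB subunit, rose at day 1 under both agents, by 0.94 ± 0.08 (SE) after ISO and 1.05 ± 0.08 (SE) after LPS. Stat3, which relays interleukin-6 signals, rose by 1.80 ± 0.07 (SE) and 2.11 ± 0.07 (SE). Irf7 was still higher at LPS day 7, by 2.12 ± 0.17 (SE). Of 13 tested genes that carry or end the receptor signal, 6 rose and 3 fell at day 1 in each arm, near the shares over all genes, and 8 rose at LPS day 7, against 5.96% of all genes. Dpp4, a protease that trims chemokines, fell by 2.57 (ISO) and 2.40 (LPS) on the log2 scale at day 1.

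**Figure D5:**
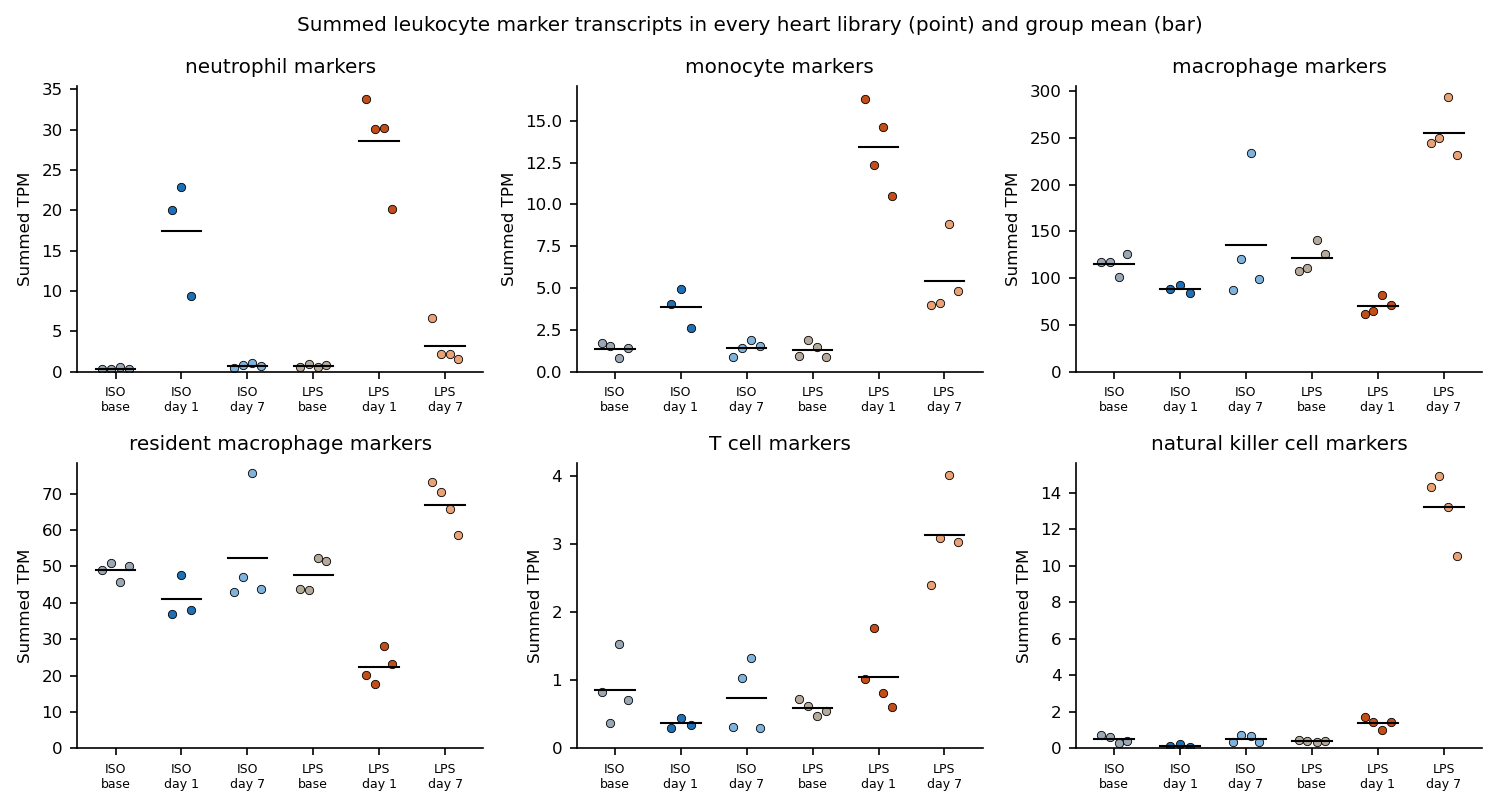
Summed TPM of 6 leukocyte marker lists (vertical axis, from 0) in each library (points) of the 6 groups (horizontal axis), with the group mean as a bar. Neutrophil and monocyte sums were high at day 1, and macrophage, T cell and natural killer cell sums at LPS day 7.

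Markers of leukocytes, the cells that both make and follow these chemokines, moved with several of the results above. Neutrophil markers summed to 0.289 to 0.968 TPM in the baseline libraries, 9.4 to 22.9 TPM at ISO day 1 and 20.2 to 33.7 TPM at LPS day 1, beside the rises of Ccl2, Ccl3 and Ccl7. Of 7 tested neutrophil markers, 6 rose at ISO day 1 and 7 at LPS day 1, where 32.9% and 33.2% of all genes tested rose. The difference between the agents was called for 0 of these markers, where 37.6% of all genes were called. Monocyte markers summed to 0.806 to 1.9 TPM at the baselines, 2.61 to 4.94 TPM at ISO day 1 and 10.5 to 16.3 TPM at LPS day 1. Of these 6 markers, 3 rose and 0 fell at ISO day 1, and 5 rose and 1 fell at LPS day 1. Among all genes tested 32.8% fell at ISO day 1 and 33% at LPS day 1. The marker that fell at LPS day 1 was Ccr2.

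Resident macrophage markers, which moved with Ccl6 and Ccl24 at LPS day 1, fell in 6 of 7 genes there and rose in 1. Among all genes tested 33% fell and 33.2% rose. The sums were 17.6 to 28.1 TPM against 43.4 to 52.3 TPM at baseline. At ISO day 1, where Ccl6 rose and Ccl24 fell, 2 of the 7 rose and 3 fell, near the 32.9% and 32.8% of all genes. The sums there were 37.0 to 47.7 TPM against 45.8 to 50.9 TPM. General macrophage markers summed to 84.3 to 93.1 TPM at ISO day 1 and 62.3 to 82.5 TPM at LPS day 1, below the 101 to 141 TPM of the baselines, so their sum did not rise where Ccl2, Ccl3 and Ccl7 did.

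At LPS day 7, where Ccl5, Ccl8 and Ccl12 were high, 7 of 8 macrophage markers and 6 of 6 natural killer cell markers were higher. So were 3 of 4 tested T cell markers, where 5.96% of all genes tested were higher. The macrophage sum was 232 to 294 TPM, that of natural killer cells 10.5 to 14.9 TPM against 0.333 to 0.48 TPM at baseline, and that of T cells 2.41 to 4.02 TPM against 0.478 to 0.727 TPM. At LPS day 1, where Ccl5 was at its highest, natural killer cell markers summed to 1.011 to 1.74 TPM and T cell markers to 0.609 to 1.77 TPM. There 4 of 6 natural killer cell markers were higher, where 33.2% of all genes were. Eosinophil markers, of the cells that Ccl11 and Ccl24 attract, summed to at most 0.113 TPM in every library, with Epx, Ear1 and Ear6 at 0 throughout. Fibroblast markers, of cells that make Ccl2 and Ccl11, rose in 1 and fell in 3 of 5 genes at day 1 under each agent. Of all genes tested, 32.9% rose and 32.8% fell at ISO day 1, and 33.2% and 33% at LPS day 1. The fibroblast sum was 182 to 195 TPM at ISO day 1 against 242 to 258 TPM at baseline. At LPS day 1, where Ccl11 rose, the fibroblast sum was 341 to 439 TPM against 246 to 289 TPM. The part of any of these cells in the chemokine levels was not tested.

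The members' profiles over the 6 groups were compared by the root mean square difference of mean log2 CPM, each gene centred on its own mean. Among the 45 pairs of members the closest were Ccl3 and Ccl7, at 0.236, although they lie in different groups on chromosome 11, and the farthest were Ccl5 and Ccl6, at 4.21, which share one. Among all genes tested, the closest to Ccl2 was Icam1, a leukocyte adhesion molecule of endothelium, at 0.117. The closest to Ccl12 was Cxcr6, the receptor of Cxcl16, at 0.158, and the closest to Ccl5 was BC023105, at 0.565. Ccl6 had no gene nearer than AC153155.1, at 0.739, while its own profile spread by 1.63. These distances describe 6 group means and carry no test.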

How the data were processed

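Per the file headers, the authors deposited for each of 23 heart libraries a table of estimated counts of reads per gene, TPM, and the gene and effective lengths in bases, another quantity, used here for offsets. Tools named in the submitters' processing notes are bcl2fastq, DRAGEN, edgeR and limma, with the mm10 build. Tool versions, annotation release and strandedness were not given in the sources used here. Of 55487 identifiers, 55141 matched GENCODE M21, which gave symbols and coordinates. The deposited estimated counts were rounded (9.50% of values were not whole) and tested with edgeR 4.0.16 in R 4.3.3 (TMM scaling, filterByExpr with a minimum count of 10, glmQLFit and glmQLFTest) in 1 model of 6 group means, with two-sided p-values adjusted by Benjamini-Hochberg over 15732 genes. The procedure was also run on simulated counts that had the same relative spread for every gene. That run does not show how the test performs for genes with a wider spread, such as Ccl11 at LPS day 1. CPM were computed from the rounded deposited counts with TMM scaling.

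Totals of 20910394 to 30368985 reads set the depth, and counting intervals (95%, exact) cover counting error only. P-values measure the spread between mice together with that of library making. The 10 genes and the other lists were chosen with earlier results of these data known. All 10 genes are named, with up to 4 further genes of each list that had the smallest adjusted p in a comparison, the receptors of listed ligands and the nearest genes by profile. Ccl4 falls outside that rule and was added after its values were seen. Alternatives were other scalings and filters, DESeq2 1.42.0, limma 3.58.1 (voom, and log2 TPM with pseudocounts of 0.1 and 1), pooled baselines, effective-length offsets, fits limited to the groups compared, replicate blocks and leaving out each library in turn. Leaving out pairs of LPS day 1 libraries was added after seeing the data. Promoter windows came from RefSeq and were aligned with Biopython. Some genes of the other lists are counted but not reported here by name.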

Additional observations from a re-analysis of the deposited data

Results flagged for a closer look

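Of 50 sets of 4 libraries examined (10 genes in 5 groups), 2 held a library far from the others, and chance alone gives about 1 in 20. In ISO day 7 replicate 3, Ccl8 stood at 5.25 TPM against 0.10, 0.11 and 0.74 TPM in the other 3 libraries. In ISO day 7 replicate 2, Ccl3 was listed at 0 TPM against 0.064, 0.071 and 0.072 TPM in the others, which is 0 reads against 1 read each.

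The response of 6 genes at day 1 differed between the agents by the test of the difference itself (LPS change minus ISO change, log2, edgeR). Ccl5 differed by 10.25, Ccl8 by 4.44 and Ccl11 by 1.95, and Ccl6 by -5.56, Ccl9 by -3.26 and Ccl24 by -2.24. At day 7 Ccl5 differed by 5.47.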

How the results depend on the processing

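Of 63 member changes reported, 46 were called, and 32 of these were called in every alternative run for them. The other 14 lost the call in at least 1, and the cause was not tested. The count of members called stayed within 1.5 times in every setting for 7 of the 9 comparisons. From ISO day 1 to day 7 it ran from 5 to 9 with single libraries left out. For the agent difference at day 7 it was 1 as reported, 2 with log2(TPM + 1), 4 with pooled baselines and 1 to 2 with single libraries left out.

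Signs reversed for Ccl2, Ccl7, Ccl8 and Ccl11. The Ccl7 agent difference at day 1 (0.16) was -0.11 with limma-voom, -0.16 and -0.12 with log2 TPM and pseudocounts of 0.1 and 1, -0.042 with pooled baselines, -0.77 without LPS day 1 replicates 1 and 2, and -0.24 to 0.54 with single libraries left out. That of Ccl2 (0.20) was -0.072 with log2(TPM + 1), -0.17 with pooled baselines, -0.54 without those replicates, and -0.054 to 0.55 with single libraries left out. The ISO day 7 change of Ccl8 ran from -0.16 to 2.30 with single libraries left out. The change of Ccl11 from LPS day 1 to day 7 was 0.056 without those replicates, an alternative chosen after seeing the data.

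Replicate numbers recur across groups, but hearts came from separate mice. Deviations of same-numbered libraries correlated by -0.12 to 0.16, so no pairing was assumed. With the replicate number as a block, 8 members were called at ISO day 1, 9 at LPS day 1, 4 at LPS day 7, 9 in each change from day 1 to day 7, 6 and 1 in the agent differences at day 1 and day 7, and 0 at ISO day 7 and between baselines, the same counts as without it.

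Scaling by library totals moved the median of all genes by 0.16 at LPS day 7, and log2 TPM by 0.20, so small rises there depend on the scaling. Ccl3, Ccl8 and Ccl12 had under 10 reads in every baseline library, which limits the precision of their changes. None of them reached the filter's count cutoff in a baseline library, so they were tested through the groups where they were high.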
